A study of Mus musculus with 6 samples.

Results

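Genes of the neural crest, of autonomic neurons and of REST-controlled neuronal programmes were followed in lung buds of mouse embryos at E11.5 that lacked Hdac1 and Hdac2 under Shhcre control. The 45 genes were listed by name from their known roles, with earlier results of these data known. All 45 had a probe set (called a probe here) of their own among the 19938 genes measured. The 3 DKO samples were Shhcre:Hdac1fl/fl; Hdac2 fl/fl, and the 3 control samples were Shhcre with no floxed allele named, so both groups carry the Cre allele. All embryos had a mixed background of C57BL/6, 129X1 and 129S1. The Sonic hedgehog locus drives Cre in lung epithelium, whereas the buds as a whole were profiled. The sample titles call the 6 arrays biological replicates, numbered 1 to 3 in each group. Neither the cells that lost the alleles nor the number of embryos in a sample is given in the labels.

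Vagal neural crest cells enter the lung from the foregut and form its intrinsic neurons and glia, which come to lie beside the airway smooth muscle. In the gut, vagal crest cells depend for migration and survival on GDNF acting through Ret and its co-receptor Gfra1. They also depend there on endothelin 3 acting through the receptor Ednrb. Neither dependence was tested in these lung buds. Outside the nervous system, many neuronal genes are held off by REST, a zinc finger repressor that binds the RE1 element and recruits Sin3 and CoREST complexes, both of which contain Hdac1 or Hdac2.

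Of the 45 genes, Rtn1, Bex1 and Dcx rose in the DKO buds, Edn3 fell, and the other 41 did not pass. A gene passed at an adjusted p under 0.05 in limma, with the Benjamini-Hochberg adjustment over all 19938 genes. That is 8.89% of these 45, against 2.41% of all genes, of which 1.03% were higher and 1.38% lower in DKO. Because the 45 were chosen with earlier results known, this contrast is a description with no test. The count behind the share of all genes was 481. It became 811 when DKO 2 was left out and 317 when DKO 3 was, and 215, 197 and 215 when control 1, 2 or 3 was. The median log2 change of the 45 was -0.01 and that of all genes was 0.00. Values on this array are taken as log2 levels, and a change is the DKO mean minus the control mean. Before adjustment, 12 of the 45 (26.7%) had a p under 0.05, against 12.8% of all genes. The 3 DKO values lay wholly above the control values for 6 of the 45 and wholly below for 7, together 28.9%. Over all genes these shares were 8.36% above and 10.4% below, together 18.8%.

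**Figure D1:**
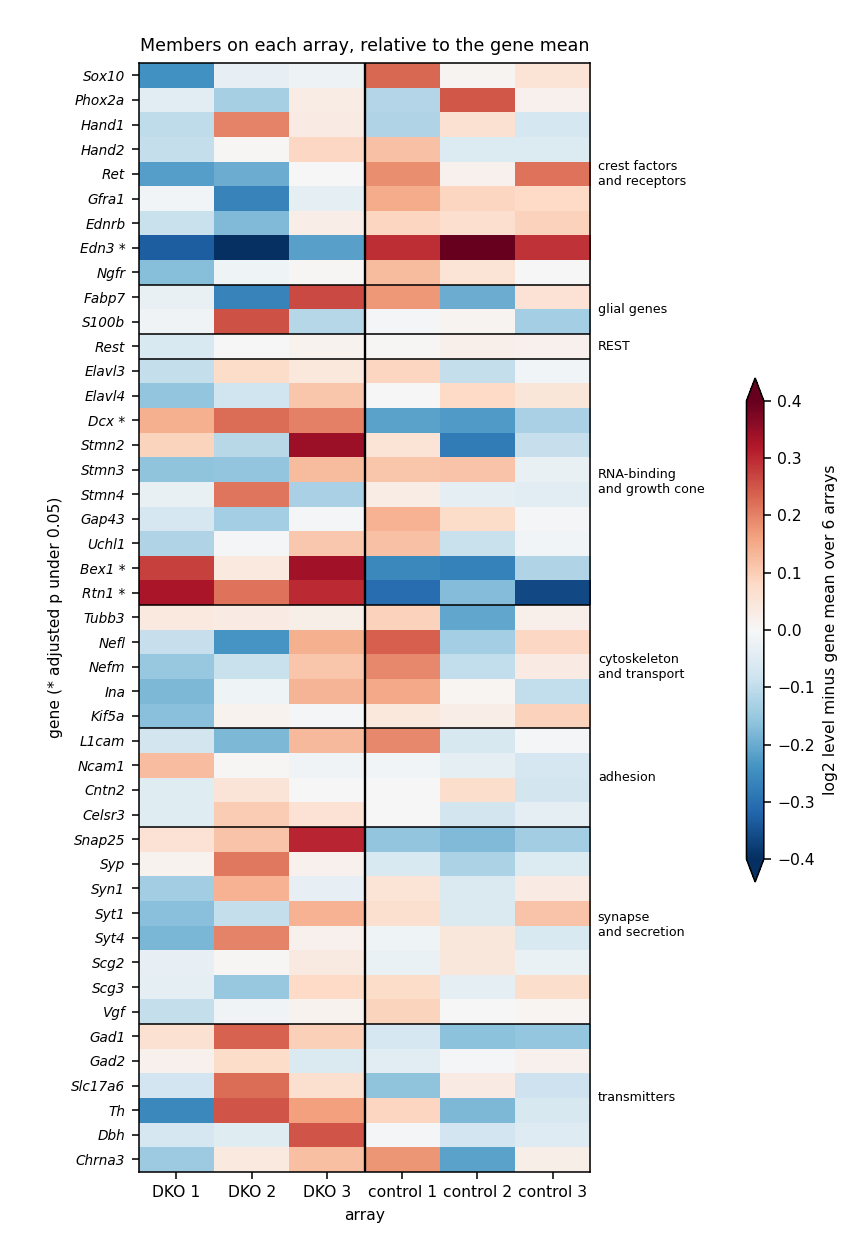
Log2 level of each of the 45 genes on each array, minus the mean of that gene over the 6 arrays, with DKO arrays on the left, control arrays on the right and genes grouped by role. Colours end at 0.4 on either side, and values beyond it take the end colour. Edn3 is blue on all DKO arrays, and Dcx and Rtn1 are red on all of them. Bex1 is red on DKO 1 and DKO 3, but on DKO 2 its level of 8.83 is close to its mean of 8.79.

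Most of the neuronal genes gave dim signals. The level was under the median of the array on all 6 arrays for 23 of the 45, on some arrays for 6 and on none for 16. The 23 make up 51.1% of the 45, against 42.8% of all genes that were under it on all 6 arrays. The 23 were Phox2a, Hand1, S100b, Elavl3, Elavl4, Stmn4, Tubb3, Nefm, Ina, Kif5a, Celsr3, Syp, Syn1, Syt4, Scg2, Scg3, Vgf, Gad1, Gad2, Slc17a6, Th, Dbh and Chrna3. Ret, Stmn3, L1cam, Cntn2, Snap25 and Syt1 lay on both sides of it. All 4 genes that passed were among the 16 that lay above it on all arrays. Of the 23 dim ones limma called 0, and ordinary least squares called 0 as well. In limma, 2 of the 23 had an unadjusted p under 0.05. Of all genes under the array median on all 6 arrays 1.13% were called and 7.49% had an unadjusted p under 0.05, against 8.70% of the 23, and of all genes above it on all arrays 2.77% were called. A dim probe may report little specific signal, and a change in a rare cell type may go unseen there. In whole buds, fewer cells of a type and less RNA per cell cannot be told apart.

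**Figure D2:**
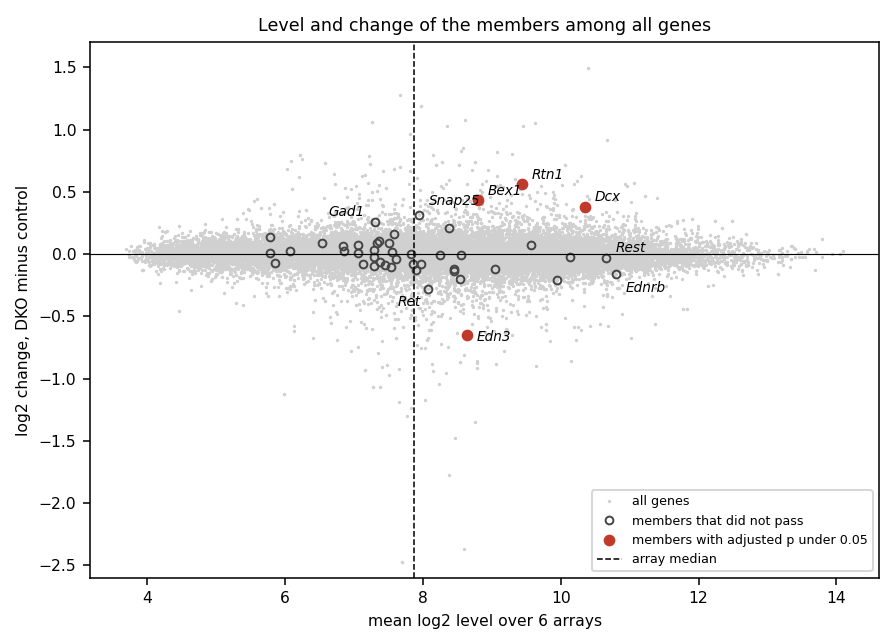
Mean log2 level over the 6 arrays (x axis) against the log2 change, DKO minus control (y axis), for all genes in grey and the 45 genes as circles, filled in red where the adjusted p was under 0.05. The dashed line is the array median, and the 4 red points all lie to its right.

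The endothelin axis held the gene with the largest fall. Edn3 encodes endothelin 3, the ligand of Ednrb. Its log2 level was 8.31, 8.20 and 8.42 in DKO 1 to 3, against 8.93, 9.03 and 8.92 in controls 1 to 3. All DKO values lay below all control values, and the gap between the groups was wider than either group's range. The change was -0.65 (SE 0.07, interval -0.80 to -0.50, adjusted p = 0.00170), a level 1.57-fold lower in DKO. Ednrb, the receptor that crest cells carry, was at 10.72, 10.63 and 10.83 in DKO, against 10.89, 10.87 and 10.90 in controls. The groups did not overlap, but DKO 3 came close to the controls, and the change of -0.16 (SE 0.06) did not pass (adjusted p = 0.286). Edn1, which encodes a further endothelin and is not among the 45, stood at 0.13 (adjusted p = 0.581).

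The promoter of Edn3 is shown because this gene had the largest change of the 45. The stretch covers the 150 bases before the transcription start on GRCm38.p6 (chr2:174760469-174760618, plus strand, RefSeq). None of the motifs searched here lies in it.
Edn3: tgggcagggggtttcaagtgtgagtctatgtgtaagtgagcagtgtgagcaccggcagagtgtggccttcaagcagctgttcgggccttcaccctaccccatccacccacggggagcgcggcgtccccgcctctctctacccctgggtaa

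Lung epithelium markers moved in the same direction as Edn3. Of 12 listed, 9 fell and 0 rose, with a median change of -0.56. The mean log2 level of the list was 9.15 to 9.31 on the DKO arrays and 9.69 to 9.79 on the control arrays. The largest falls there were in Rab25 (-0.89), Krt18 (-0.86), Foxa1 (-0.69), Grhl2 (-0.61) and Shh (-0.59). The Shh call was lost without control 2 (adjusted p = 0.0532), where 6 of the 12 were called. None of the 12 was under the array median on all arrays, and their part in the Edn3 result was not tested. The 9 that fell are 75% of the list, against 2.41% of all genes that passed in either direction. This list and the further lists below were chosen with earlier results of these data known, so their counts are descriptions with no test.

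The GDNF receptor genes were lower on all DKO arrays without passing. Ret encodes the signalling receptor tyrosine kinase. It was at 7.86, 7.88 and 8.08 in DKO, against 8.27, 8.10 and 8.30 in controls, and DKO 3 and control 2 nearly met. The change was -0.28 (SE 0.08, interval -0.45 to -0.10, adjusted p = 0.130). Gfra1, which encodes the co-receptor that binds GDNF, was at 9.94, 9.68 and 9.91 in DKO, against 10.10, 10.04 and 10.03 in controls. Its change was -0.21 (SE 0.07, adjusted p = 0.238), with DKO 2 the lowest array. The ligand gene Gdnf, not among the 45, was measured under the array median on all 6 arrays.

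Sox10, the transcription factor that maintains crest progenitors and glia, was likewise lower on all DKO arrays without passing. Its level was 8.30, 8.50 and 8.52 in DKO, against 8.77, 8.55 and 8.59 in controls. DKO 2 and DKO 3 lay just under the lowest control, and the change of -0.20 (SE 0.08) did not pass (adjusted p = 0.341). The neurotrophin receptor gene Ngfr, also carried by crest cells, was at 8.87, 9.03 and 9.05 in DKO, against 9.17, 9.10 and 9.04 in controls, and the groups overlapped (-0.12, adjusted p = 0.497). Phox2a, a transcription factor of autonomic neurons, stood at -0.10 (adjusted p = 0.762). Hand1 and Hand2, bHLH factors shared by sympathetic neurons, heart and mesenchyme, stood at 0.09 (adjusted p = 0.775) and -0.01 (adjusted p = 0.986). By count, 8 of the 9 crest factors, receptors and ligands had a change below 0, 5 had all DKO arrays below the controls and 1 passed. Of all 19938 genes, 9936 had a change below 0, 10.4% had all DKO arrays below the controls and 2.41% passed. The median change of the 9 was -0.16.

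Glial genes varied more between replicates than between groups. Fabp7, a fatty acid binding protein of glial precursors, was at 10.11, 9.87 and 10.40 in DKO, against 10.31, 9.94 and 10.20 in controls. Within each group the arrays thus differed by more than the -0.02 between the means (SE 0.13, adjusted p = 0.972). S100b, a calcium-binding protein of mature glia, was dim on all arrays and stood at 0.09 (adjusted p = 0.804).

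**Figure D3:**
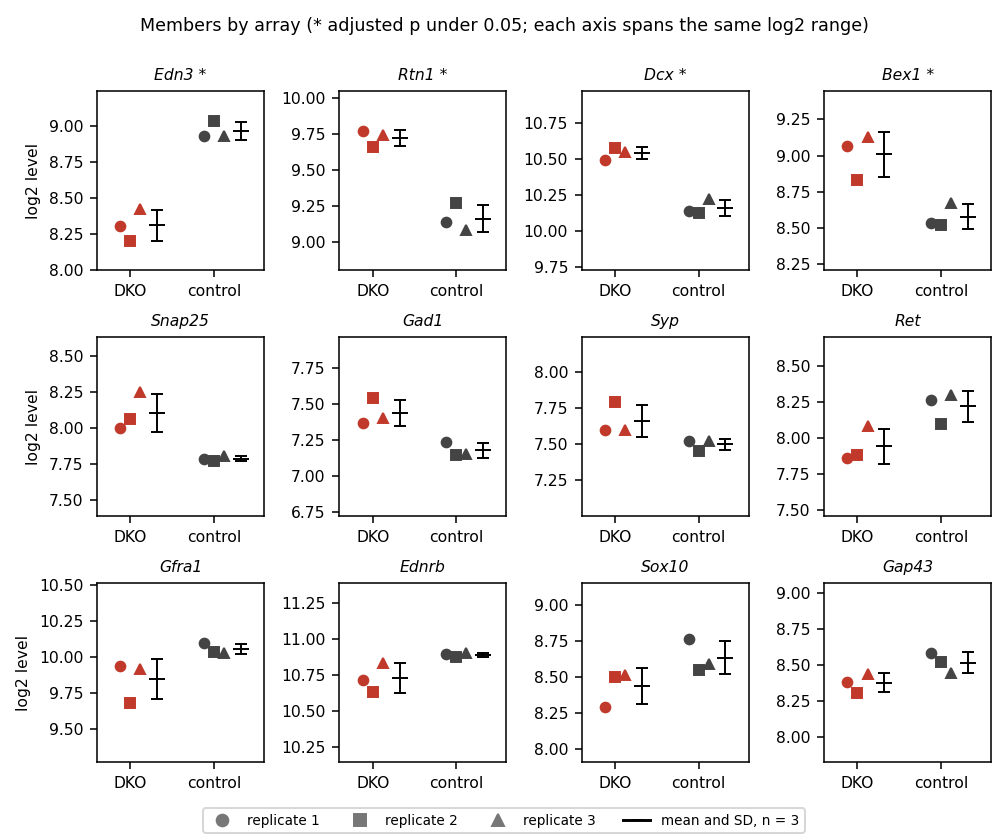
Log2 level (y axis) of the 12 genes with an unadjusted p under 0.05, with DKO on the left and control on the right of each panel, a symbol for each replicate, and the mean with its SD (n = 3) beside the points. Every axis spans the same log2 range. The groups do not overlap in any of the 12 panels, but they nearly meet for Gap43, Ret and Sox10. They are furthest apart for Edn3 and Rtn1.

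Rest itself did not differ detectably between the groups. Its log2 level was 10.60, 10.66 and 10.67 in DKO, against 10.67, 10.68 and 10.68 in controls. The values overlapped, and the change was -0.03 (SE 0.05, interval -0.14 to 0.08, adjusted p = 0.885). Of 17 measured REST partners and cofactors, 0 rose and 1 fell, the targeted gene Hdac1. Hdac1 was at 11.20, 11.23 and 11.23 in DKO, against 11.48, 11.49 and 11.52 in controls, a change of -0.28 (SE 0.05, adjusted p = 0.0193). Hdac2 was at 11.74, 11.77 and 11.70 in DKO, against 11.83, 11.69 and 11.81 in controls, which overlap (-0.04, adjusted p = 0.845). The positions of both probes relative to the deleted exons are not known here, so they may not report the deletion. The Hdac1 call was lost without any 1 of controls 1, 2 and 3, DKO 1 or DKO 3 (adjusted p = 0.0883, 0.0932, 0.112, 0.0517 and 0.0643).

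Promoters of Syn1, Scg2, Celsr3 and Gad2, genes of synapses, secretion, adhesion and transmitter synthesis, are shown because they carry letters of the RE1 element. The searches used the left arm of RE1, TTCAGCACC, and the right arm, GGACAGC, on both strands of windows running from 250 bases before to 50 bases after each start on GRCm38.p6 (RefSeq). Such windows were found for 31 of the 45 genes. The left arm lay in those of 3 of the 31 genes (9.68%), Celsr3, Scg2 and Syn1, against 0.433% of all 27025 genes with a window. The right arm lay in those of 4 (12.9%), Gad2, Rtn1, Scg2 and Tubb3, against 7.59% of all genes. The 45 include genes listed as REST-controlled, so a higher share of RE1 letters may follow from the choice of genes. A match of letters is not a binding site. Capitals mark the arms in the stretches below, which lie at chrX:20921049-20921168 (Syn1, minus strand), chr9:108825865-108825984 (Celsr3, plus strand), chr1:79440025-79440126 (Scg2, minus strand) and chr2:22622107-22622226 (Gad2, plus strand).
Syn1: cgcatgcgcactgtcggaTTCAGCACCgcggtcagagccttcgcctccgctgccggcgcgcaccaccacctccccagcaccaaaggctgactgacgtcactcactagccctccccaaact
Celsr3: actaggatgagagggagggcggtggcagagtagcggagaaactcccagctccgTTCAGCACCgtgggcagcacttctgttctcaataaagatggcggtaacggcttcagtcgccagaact
Scg2: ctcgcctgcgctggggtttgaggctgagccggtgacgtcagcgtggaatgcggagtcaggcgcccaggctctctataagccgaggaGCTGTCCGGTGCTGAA
Gad2: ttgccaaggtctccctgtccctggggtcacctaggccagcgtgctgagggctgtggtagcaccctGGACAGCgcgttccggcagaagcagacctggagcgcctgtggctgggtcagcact
In Scg2 both arms lie next to each other on the strand opposite to the gene.

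These 4 genes were dim and none passed. Of the further genes with the right arm, Tubb3 was also dim and did not pass (0.06, adjusted p = 0.832). Rtn1 lay above the array median on all arrays and rose (0.56, adjusted p = 0.00269). Syn1, a synaptic vesicle phosphoprotein, was at 7.14, 7.42 and 7.25 in DKO, against 7.34, 7.23 and 7.32 in controls (-0.02, interval -0.19 to 0.15, adjusted p = 0.953). Scg2, a granin of dense-core vesicles, was at 5.74, 5.78 and 5.81 in DKO, against 5.75, 5.82 and 5.75 in controls (0.01, interval -0.11 to 0.12, adjusted p = 0.981). Celsr3, an atypical cadherin of axon guidance, was at 7.004, 7.15 and 7.11 in DKO, against 7.05, 6.98 and 7.01 in controls (0.07, interval -0.05 to 0.20, adjusted p = 0.694). In each of these the DKO and control arrays overlapped. Gad2, a GABA-synthesising enzyme, was at 6.09, 6.14 and 6.01 in DKO, against 6.03, 6.06 and 6.09 in controls (0.02, interval -0.10 to 0.14, adjusted p = 0.928), again with overlap.

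Snap25, a SNARE protein of vesicle fusion, came closest to passing among the synaptic genes. It was at 8.004, 8.06 and 8.25 in DKO, against 7.79, 7.77 and 7.81 in controls. All DKO arrays lay above the array median and all control arrays below it. The change was 0.32 (SE 0.07, interval 0.16 to 0.47, adjusted p = 0.0509), and 7 of 16 alternative settings put it past the threshold (0.00121 to 0.0453). Gad1, the paralogue of Gad2, was at 7.37, 7.54 and 7.40 in DKO, against 7.24, 7.14 and 7.15 in controls, without overlap and under the array median throughout (0.26, SE 0.06, adjusted p = 0.0751). Syp, the vesicle protein synaptophysin, was at 7.60, 7.79 and 7.60 in DKO, against 7.52, 7.45 and 7.52 in controls (0.16, SE 0.07, adjusted p = 0.332). Its DKO 2 value was the highest and the other DKO values lay close to the controls.

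The remaining synaptic and transmitter genes overlapped between the groups. The calcium sensors Syt1 and Syt4 stood at -0.08 and 0.02, the granin Scg3 at -0.07 and the neuropeptide precursor Vgf at -0.07. The vesicular glutamate transporter gene Slc17a6 stood at 0.14 (adjusted p = 0.571). Th and Dbh, enzymes of catecholamine synthesis, stood at 0.10 and 0.09, and the ganglionic acetylcholine receptor subunit Chrna3 at 0.01. Replicates of Th differed widely, with 7.11, 7.61 and 7.53 in DKO, against 7.45, 7.18 and 7.30 in controls. The lowest adjusted p of these 8 genes was that of Slc17a6.

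Rtn1, Bex1 and Dcx, the 3 genes that rose, belong to the 10 genes of neuronal differentiation and growth cones. Rtn1, a reticulon of the endoplasmic reticulum that is abundant in neurons and neuroendocrine cells, was at 9.77, 9.66 and 9.74 in DKO, against 9.13, 9.27 and 9.08 in controls. The DKO arrays lay close together and well above every control. The change was 0.56 (SE 0.06, interval 0.42 to 0.70, adjusted p = 0.00269), a level 1.47-fold higher in DKO. Dcx, the microtubule-binding doublecortin of migrating neurons, was at 10.49, 10.57 and 10.55 in DKO, against 10.14, 10.12 and 10.22 in controls. Without overlap, it rose by 0.38 (SE 0.05, interval 0.26 to 0.50, adjusted p = 0.00724). Bex1, a small X-linked protein gene linked to neurotrophin receptor signalling, was at 9.06, 8.83 and 9.13 in DKO, against 8.53, 8.52 and 8.67 in controls. It rose by 0.43 or 1.35-fold (SE 0.08, interval 0.24 to 0.62, adjusted p = 0.0318), and DKO 2 was the DKO array nearest the controls. The Bex1 call was kept in 9 of 16 alternative settings. It was lost without DKO 1 or DKO 3 (adjusted p = 0.0898 and 0.0994) and without control 1, 2 or 3 (0.146, 0.149 and 0.0637). Adjustment over all probes and ordinary least squares lost it as well. Rtn1, Dcx and Edn3 kept their calls whichever single array was left out.

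Promoters of Bex1 and Rtn1 are shown because both genes rose. Dcx has 2 windows, and neither holds a motif searched here. Capitals mark the GC box, GGGCGG, on either strand, and in Rtn1 also the right arm of RE1. The GC box lay in the windows of 16 of the 31 genes (51.6%), against 38.2% of all genes with a window. The Bex1 stretch covers the 150 bases before its start (chrX:136215514-136215663, minus strand). The Rtn1 stretch covers the 160 bases before 1 of its 3 annotated starts (chr12:72236728-72236887, minus strand), and which start gives rise to the signal of its probe was not determined.
Bex1: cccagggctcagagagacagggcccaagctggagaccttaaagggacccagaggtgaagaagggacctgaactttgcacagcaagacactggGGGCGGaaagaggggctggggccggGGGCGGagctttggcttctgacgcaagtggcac
Rtn1: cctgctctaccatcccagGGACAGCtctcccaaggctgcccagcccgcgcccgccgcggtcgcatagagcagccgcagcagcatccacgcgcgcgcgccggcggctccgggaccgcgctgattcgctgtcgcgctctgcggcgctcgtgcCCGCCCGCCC

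The other 7 genes of this role did not pass. Gap43, the growth-associated protein of growth cones, was at 8.38, 8.31 and 8.44 in DKO, against 8.59, 8.52 and 8.44 in controls. DKO 3 and control 3 differed only in the third decimal, and the change was -0.14 (SE 0.06, adjusted p = 0.370). Stmn2, a stathmin of growing axons, was at 8.47, 8.27 and 8.72 in DKO, against 8.44, 8.10 and 8.29 in controls, with wide spread in both groups (0.21, SE 0.12, adjusted p = 0.535). Its relatives Stmn3 and Stmn4 stood at -0.13 and 0.04, and the second probe of Stmn3, which was dimmer, at -0.03. The neuronal RNA-binding protein genes Elavl3 and Elavl4 stood at 0.01 and -0.08. The ubiquitin hydrolase gene Uchl1 stood at -0.01.

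None of the structural genes of axons or the adhesion genes passed. Tubb3, the neuronal beta-tubulin, was at 6.88, 6.88 and 6.87 in DKO, against 6.94, 6.64 and 6.86 in controls (0.06, adjusted p = 0.832). The neurofilament genes Nefl and Nefm stood at -0.12 and -0.09, and alpha-internexin, Ina, at -0.04, with 0.06 for its second, dimmer probe. Nefl had 8.36, 8.22 and 8.597 in DKO, against 8.69, 8.32 and 8.54 in controls, so its spread within groups exceeded the difference. Kif5a, a kinesin of axonal transport, was lower on all DKO arrays (-0.11, adjusted p = 0.553) and dim. The adhesion genes L1cam, Ncam1 and Cntn2 stood at -0.08, 0.08 and 0.00. Ncam1, also expressed outside the nervous system, was at 9.69, 9.57 and 9.56 in DKO, against 9.56, 9.54 and 9.51 in controls.

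**Figure D4:**
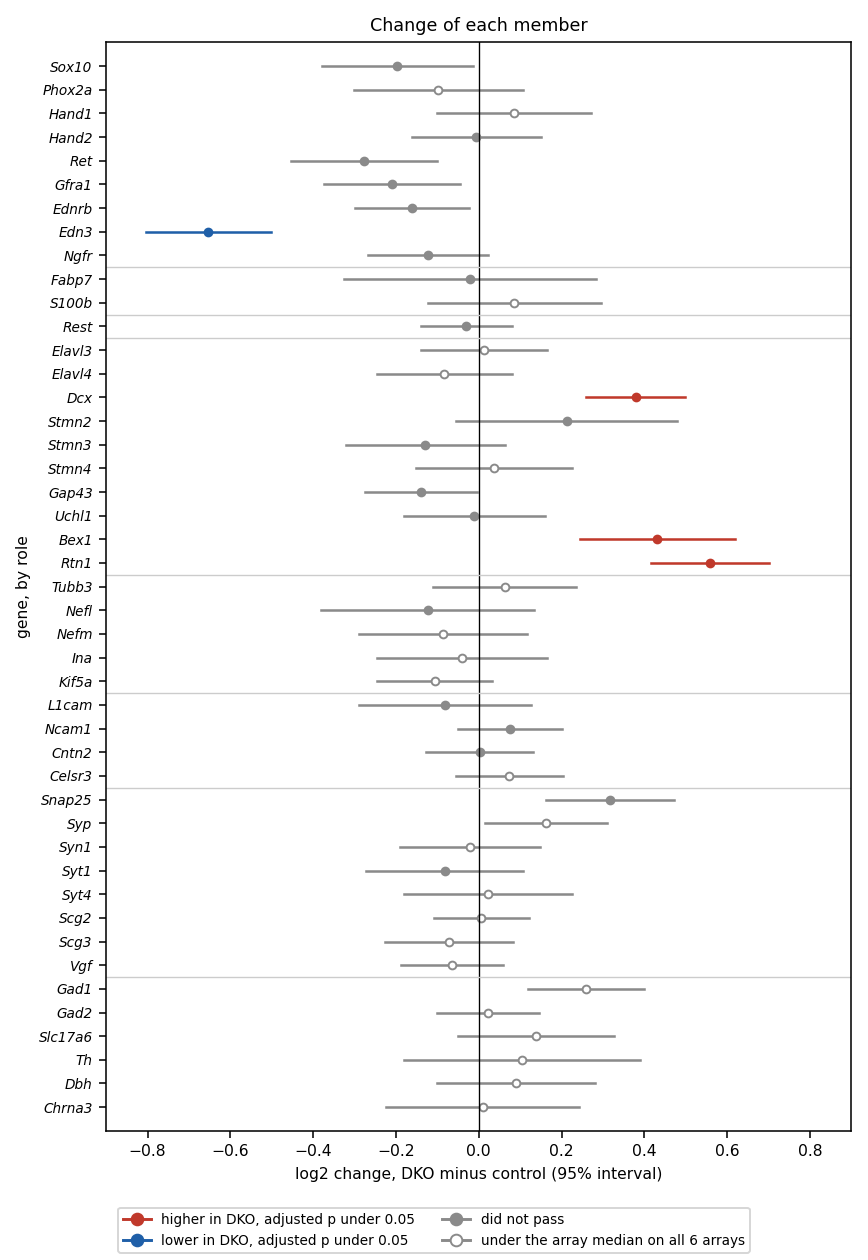
Log2 change of each of the 45 genes, DKO minus control, with its 95% confidence interval from limma, ordered by role. Red marks genes that rose, blue marks Edn3, which fell, grey marks genes that did not pass, and open circles mark genes under the array median on all 6 arrays. Intervals of the dim genes mostly span 0.

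Most of the further neural genes outside the 45 did not pass. Across 4 lists of crest and glial, autonomic, pan-neuronal and RE1-controlled genes, 76 of 88 were measured, 4 rose and 2 fell, with a median change of -0.03. The share that passed was 7.89% of the 76, against 2.41% of all genes. These lists, too, were chosen with earlier results of these data known. Of 9 crest and glial genes, Erbb3, a neuregulin receptor of crest glia and of epithelia, fell. It was at 8.38, 8.66 and 8.79 in DKO, against 9.52, 9.43 and 9.53 in controls (-0.88, SE 0.09, adjusted p = 0.00199). Zeb2, a repressor of crest and mesenchyme, rose by 0.28 (SE 0.05, adjusted p = 0.0318). Its call was lost without DKO 1 or DKO 3 (adjusted p = 0.0844 and 0.105), without control 1, 2 or 3 (0.162, 0.132 and 0.0973) and with the replicate number as a block (0.0689). Of 18 autonomic genes, Eya1, a transcriptional coactivator that the lung bud also expresses, fell to 8.54, 8.44 and 8.57 in DKO, against 9.13, 9.13 and 9.15 in controls. Ddc, the aromatic amino acid decarboxylase of monoamine and endocrine cells, rose by 0.37 (SE 0.05, adjusted p = 0.00714).

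Of 30 pan-neuronal genes, Bex2 rose and 0 fell, and 22 had a change below 0. Of all 19938 genes, 9936 had a change below 0. Bex2, a close relative of Bex1, was at 8.38, 8.33 and 8.44 in DKO, against 7.77, 7.97 and 8.07 in controls (0.44, SE 0.08, adjusted p = 0.0206). The call for Bex2 was lost without DKO 1 or DKO 3 and without control 1 or control 2 (adjusted p = 0.0545 to 0.0804), and 4 of the 30 were called without DKO 2. Whether the probes of Bex1 and Bex2 bind both transcripts was not tested. Of 19 further RE1-controlled genes, Chga, the chromogranin of endocrine vesicles, rose and 0 fell, with a median change of -0.01. Chga was at 8.20, 8.18 and 8.13 in DKO, against 7.83, 7.62 and 7.74 in controls (0.44, SE 0.06, adjusted p = 0.00796). All DKO arrays lay above the array median for Chga and all control arrays below it.

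Markers of other cells that share neuronal genes moved as follows, and their part in the rises of Rtn1, Bex1 and Dcx was not tested. Of 9 neuroendocrine genes, Rfx6 (1.03) and Chga rose and 0 fell, and the mean log2 level of the list was 6.93 to 7.03 on DKO arrays and 6.81 to 6.84 on control arrays. The Rfx6 call was lost without control 2 (adjusted p = 0.0528). The list had 6 of 9 genes under the array median on all arrays, among them Neurod1 and Pcsk1. Of 6 mesothelial genes, Upk1b (0.47) and Gpm6a (0.42) rose, with list means of 9.09 to 9.14 on DKO arrays and 8.89 to 8.91 on control arrays. The Gpm6a call was lost without DKO 3 (adjusted p = 0.0643) or without control 1, 2 or 3 (0.129, 0.129 and 0.0672). Of 8 heart genes, Myl7 (0.80) rose, with list means of 8.60 to 8.77 on DKO arrays and 8.36 to 8.44 on control arrays, and 3 genes were called without DKO 2. For 14 genes of the central nervous system limma called 0, and ordinary least squares called 0 as well. An unadjusted p under 0.05 was found for 2 in limma and for 1 by ordinary least squares. The largest changes were those of Zic2 (0.20), Nkx6-1 (-0.20) and Neurog1 (0.12). For 5 sensory neuron genes limma called 0, with 1 at an unadjusted p under 0.05, led by Ntrk3 (-0.17), Pou4f1 (0.13) and Isl1 (-0.09). Of 9 ligands of crest cells and neurons 0 passed and 1 had an unadjusted p under 0.05, Kitl (0.30, adjusted p = 0.0567), and 1 was called without DKO 2. Edn1 and Nrg1 (-0.07) had the next largest changes.

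**Figure D5:**
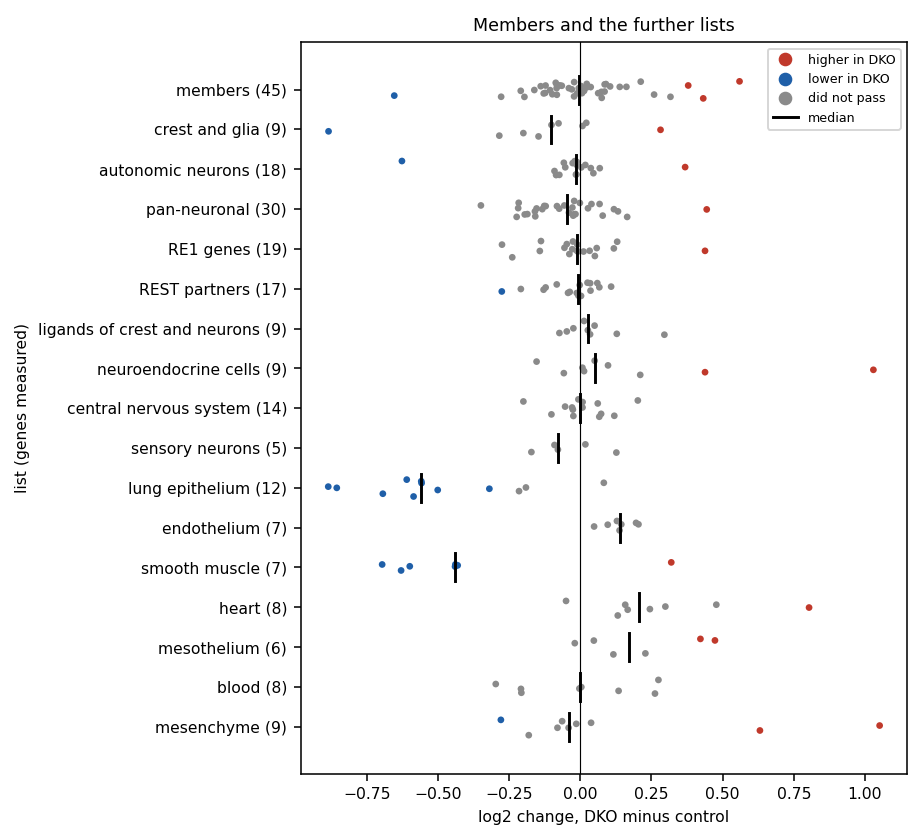
Log2 change, DKO minus control, of each gene of the 45 and of the further lists, with the number of genes measured in brackets, a black line at each median, red for genes that rose, blue for genes that fell and grey for those that did not pass. The median is -0.10 for crest and glia, -0.05 for the pan-neuronal list, and -0.01 for autonomic neurons and for RE1 genes. Lung epithelium and smooth muscle centre at -0.56 and -0.44.

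Of 7 smooth muscle genes, beside whose cells intrinsic neurons settle, 6 fell, led by Actg2 (-0.70), Cnn1 (-0.63), Myh11 (-0.60), Acta2 (-0.44) and Tagln (-0.44), and Des rose (0.32). This count of 7 depended on single arrays: 5 were called without DKO 1, 3 without DKO 3, 2 without control 1 and 0 without control 2 or control 3, and 4 with the replicate number as a block. The list means were 9.34 to 9.59 on DKO arrays and 9.78 to 9.91 on control arrays. Of 7 endothelial genes limma called 0 (2 at an unadjusted p under 0.05), the largest changes being those of Tek (0.20), Cdh5 (0.20) and Sox17 (0.14). Of 8 blood genes it called 0 (5 at an unadjusted p under 0.05, and 1 called without DKO 1 and without DKO 2), led by Tyrobp (-0.30), Gata1 (0.27) and Hbb-bh1 (0.26). Of 9 mesenchymal genes Fgf10 (1.05) and Meox2 (0.63) rose and Twist2 (-0.28) fell, and the Twist2 call was lost without any 1 array other than DKO 2 (adjusted p = 0.0505 to 0.186). The lung markers Nkx2-1 (10.20, 10.44 and 10.44 in DKO, against 10.53, 10.60 and 10.53 in controls) and Foxf1 were bright in both groups.

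Replicates differed from each other in a way that many of the 45 genes shared. DKO 3 was the highest DKO array for 26 of the 45 genes (57.8%), against 28.4% of all genes. DKO 1 was the lowest DKO array for 28 (62.2%), against 48.0% of all genes. Among the controls, control 1 was the highest for 24 (53.3%, against 33.1% of all genes) and control 2 the lowest for 25 (55.6%, against 29.9%). The genes share arrays, so these counts are a description with no test. The within-group SD had a median of 0.11 over the 45 genes and 0.08 over all genes.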

How the data were processed

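Total RNA (100 ng per sample) was labelled with biotin after in vitro transcription and hybridised to MoGene1.1ST arrays, per the labels' protocols. The authors' deposited table holds log2 expression values, and RMA, oligo and limma are listed in the submitters' processing notes without versions. The file does not state the log base. Array medians were 7.87 to 7.89, and the number of arrays limits the precision.

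Probes with exactly 1 gene symbol in the platform annotation were used (21789 of 35556), with the brightest probe per gene. Groups came from the sample titles. The test was two-sided, with group as the only term, in lmFit and eBayes of limma 3.58.1 (R 4.3.3), with Benjamini-Hochberg adjustment over 19938 genes, and the code was tested on simulated data. Promoter windows came from RefSeq (GRCm38.p6). The genes and lists were chosen with earlier results of these data known. Values in full were to be given for genes past the threshold, those with an unadjusted p under 0.05 and Rest. From each further list up to 5 genes past the threshold were to be named, or up to 3 with the largest change where none passed. Gdnf, Neurod1, Pcsk1, Nkx2-1 and Foxf1 were named outside this rule. Other settings tried were a replicate block, eBayes options, array weights, scaling, probe choice, a filter on dim genes, ordinary least squares and leaving out each array.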

Additional observations from a re-analysis of the deposited data

How the results depend on the processing

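Rtn1, Dcx and Edn3 passed under every alternative except ordinary least squares, where each had an adjusted p of 0.116, and no change of the 12 genes given in full or of Rest reversed. Of the 45 genes, 7 were called with array weights (6 higher) and 0 with ordinary least squares (0 higher, 0 lower), where 7 had an unadjusted p under 0.05. Leaving out single arrays gave 3 to 5, and adjustment over all probes gave 3. Over all genes, array weights called 2003 (1006 higher, 997 lower), an intensity trend 725 (337 higher), adjustment over all probes 148 (60 higher, 88 lower) and ordinary least squares 16 (4 higher, 12 lower). Leaving out single arrays gave 197 to 811 (83 to 385 higher, 112 to 426 lower). Of the genes of the further lists, 30 were called, against 53 with array weights, 12 over all probes, 1 with ordinary least squares and 14 to 38 without single arrays. The Hdac1 change of -0.28 lost its call with the replicate block (adjusted p = 0.0507), over all probes (0.0644) and with ordinary least squares (0.0560), and ran from -0.29 to -0.26 without single arrays. The causes were not tested. The labels do not say whether samples of the same number share more than the number. Their deviations correlated at -0.06, 0.05 and 0.16 over genes, against -0.19 to 0.14 for samples of different number. These values cannot settle whether the samples were paired. With the replicate block 4 of the 45 and 406 of all genes were called. With 3 arrays a group and many dim probes, small changes in rare cells may go unseen.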
